A study of Capra hircus with 72 samples.

Results

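Medial prefrontal cortex (mPFC) and brainstem were compared in goats that had breathed room air, and the genes that set the cortex apart from each of 3 brainstem regions were described. The comparison used 24 of the 72 libraries of the series, chosen by their labelled region and condition and by no measured value. Of these, 6 came from mPFC and 18 from the brainstem. The brainstem regions, with 6 libraries each, were the solitary tract nucleus (NTS), the respiratory column of the ventral medulla (VRC) and the chemosensory retrotrapezoid nucleus (RTN). All were labelled female goats (Capra hircus) kept for 14 days in room air, the condition that serves as control for chronic hypercapnia (CH) in this series. The labels name no drug, strain, genotype or age. The other 48 libraries came from the same regions of goats with mild CH (14 days at 6% CO2) or moderate CH (7 days at 6% and then 7 days at 8%). They were used here to see whether the same genes differed in other animals and whether the difference changed with CH. They also entered an alternative fit of the room air comparison with all 72 libraries. Total RNA was taken from whole tissue pieces, so fewer cells of a type and less RNA per cell cannot be told apart in any result.

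The prefrontal cortex is a layered part of the telencephalon, built from glutamatergic pyramidal neurons and local GABAergic interneurons. The NTS receives visceral sensory fibres, the VRC holds the neurons that generate and shape the breathing rhythm, and the RTN holds neurons that respond to carbon dioxide. During development the telencephalon is specified by transcription factors such as the EMX genes, while HOX genes give hindbrain and spinal cord segments their position along the axis, and adult neurons keep part of both programmes.

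Library totals ran from 14.65 to 28.12 M counts (median 19.01 M), from 14.7 to 20.11 M in mPFC and from 14.65 to 28.12 M in brainstem. The 10 most abundant genes took 4.11% to 4.98% of the counts in mPFC and 7.02% to 10.7% in brainstem. Values below are CPM, the counts scaled to library size, which do not correct for gene length, unless RPKM, which do, are named. The first principal component held 47.9% of the variance and set all 6 mPFC libraries apart from all 18 brainstem libraries. Within the brainstem, NTS replicate 1 stood apart from the other 5 NTS libraries and lay among the RTN libraries on the first 2 components. On the third component (8.06% of the variance) it was at 38.12, beside VRC replicate 1 at 36.34 and away from the RTN libraries at -50.16 to -26.15. Its summed myelin and oligodendrocyte markers were at 35900 CPM, against 7680 to 17500 CPM in the other NTS libraries. The counts of genes called and of separating genes are therefore given with and without it. The labels do not tie a replicate number to an animal, so the p-values measure the spread between libraries, and libraries of the same number may share an animal.

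**Figure D1:**
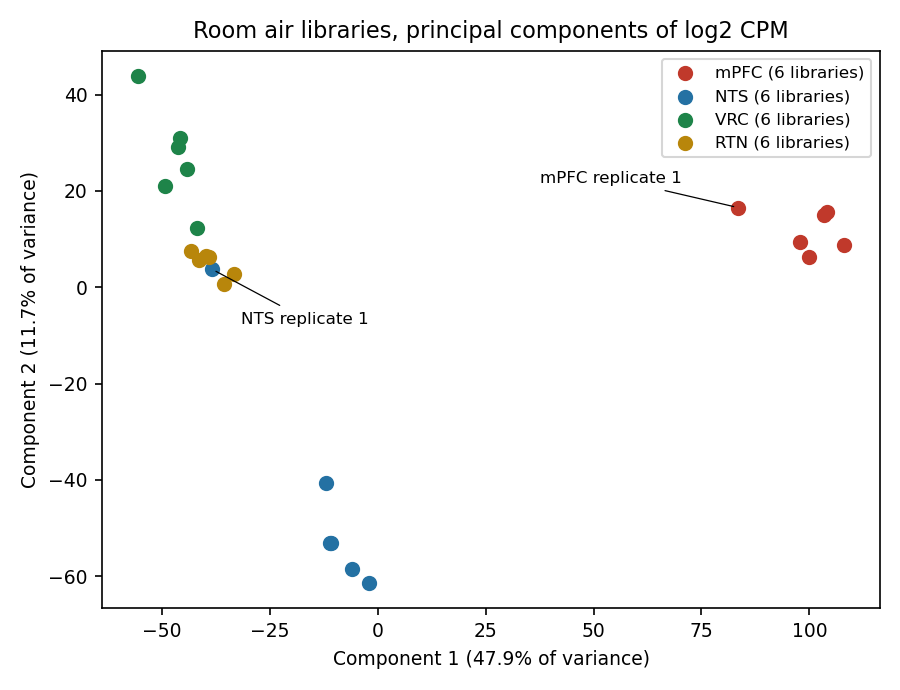
First 2 principal components of log2 CPM in the 24 room air libraries, 1 point per library, coloured by region, with the share of variance on each axis. The 6 mPFC points lie alone at the right of the first axis, and NTS replicate 1 lies among the RTN points rather than with the other NTS points.

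Most of the transcriptome differed between mPFC and brainstem. Of 15700 genes tested, 60.9% differed: 4848 (30.9%) were higher in mPFC than in the mean of the 3 brainstem regions and 4720 (30.1%) were lower, by edgeR's quasi-likelihood test at an adjusted p under 0.05. Without NTS replicate 1 these counts were 4844 and 4948. Against single regions, mPFC differed from NTS in 7581 genes (48.3%), from VRC in 9460 (60.3%) and from RTN in 8600 (54.8%). Without NTS replicate 1 these were 7387, 9770 and 8964 genes. The 3 comparisons share the same mPFC libraries.

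A gene was taken to separate the cortex from the brainstem where it passed the test against each of NTS, VRC and RTN in the same direction, with a log2 fold change of at least 1 in all 3. There were 1120 such genes higher in mPFC (7.13% of those tested) and 797 lower (5.08%), or 12.2% together. Without NTS replicate 1 there were 1092 and 718. Among them, 872 higher (5.55% of genes tested) and 450 lower genes (2.87%), together 8.42%, had no overlap in CPM between the 6 mPFC and the 18 brainstem libraries. Over all genes tested, with no other condition, 1630 (10.4%) and 1022 (6.51%) had none, together 16.9%. Genes named below were mostly picked for a small p or a large difference in these same libraries. A lack of overlap in them is therefore description and no separate support. With no threshold on the fold 2841 genes were higher and 2630 lower, and at a log2 fold change of at least 2 there were 407 and 205. At a log2 fold change of at least 4 in all 3, 80 genes were higher and 47 were lower. The brainstem region nearest to mPFC was NTS for 688 (61.4%) of the higher genes and 487 (61.1%) of the lower ones.

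Myelin content moved with these counts. The 10 myelin and oligodendrocyte markers summed to 2000 to 7760 CPM in mPFC and 7680 to 53300 CPM in brainstem. Only mPFC replicate 1 and NTS replicate 5 overlapped. With the mean log2 CPM of these markers added to the fit as a covariate, 1096 genes were higher in mPFC than the brainstem mean and 998 lower, and 411 and 351 genes separated the regions. Of the separating genes, 337 (30.1%) of the higher and 170 (21.3%) of the lower ones still did so. Because the score nearly splits cortex from brainstem by itself, myelin and region cannot be told apart for most genes in this fit. The counts it gave are stated below beside most gene lists. Over all genes tested 60.9% were called in the main fit, 30.9% higher and 30.1% lower, which is the background for each list. Leaving out NTS replicate 1 moved the count of any list in either direction by at most 2 genes.

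Transcription factors of the telencephalon were mostly higher in mPFC. Of 26 tested telencephalic and cortical transcription factors, 23 were higher in mPFC and the remaining 3 (CUX1, POU3F2 and ETV1, named after their values were seen) did not pass the test; 20 of them separated the regions. Their median log2 fold change was 3.01, against -0.01 over all genes tested, and 18 were higher with the myelin covariate. A gene with hardly any brainstem counts could be tested through mPFC alone, so these counts describe the 26 and not the family. FEZF2 (chromosome 22), a factor of deep-layer projection neurons, had a lowest value of 15.4, a median of 47.8 and a highest value of 71.3 CPM in mPFC, against 0 CPM in all NTS and VRC libraries and at most 0.06 CPM in RTN. That is 5041 counts in mPFC and 2 in brainstem, an 8200-fold ratio with a 95% counting interval of 2270 to 67700. TBR1 (chromosome 2), a factor of deep-layer glutamatergic neurons, had 52 to 118 CPM (median 100) in mPFC and 0 to 0.22 CPM (median 0) in brainstem. Its log2 fold change was 10.98 ± 0.27 (standard error implied by the test, adjusted p = 1.64e-20). Every mPFC library stood above every brainstem library for both genes, as the rule by which they were named required.

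Other cortical factors differed in how much was left in brainstem. MEF2C (chromosome 7), an activity-regulated factor of cortical neurons, had 524 to 716 CPM (median 665) in mPFC, against 16.6 to 29.7 CPM (median 21.6) in brainstem. Its log2 fold change of 4.86 ± 0.07 (adjusted p = 9.05e-25) was smaller than that of TBR1 but had the smallest p of its list. NEUROD6 (chromosome 4), of pyramidal neurons, had 57.1 to 160 CPM (median 105) in mPFC and 0.294 to 5.35 CPM (median 1.93) in brainstem. EMX1 (chromosome 11), of the dorsal telencephalon, had 10 to 17.1 CPM in mPFC and 0 to 0.324 CPM in brainstem. OTX1 (chromosome 11), of forebrain and deep-layer neurons, had 595 counts over the 6 mPFC libraries and 1 count over the 18 brainstem libraries.

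These factors did not move as a block among the 6 mPFC libraries. FEZF2 was at 42.8, 15.4, 71.3, 71.1, 52.7 and 25.9 CPM in mPFC replicates 1 to 6. The summed myelin markers were at 7760, 2300, 4080, 4470, 3430 and 2000 CPM in the same libraries. CUX2, an upper-layer factor, was at 12.2, 18.3, 20.6, 11.8, 16.6 and 26.1 CPM. Replicates 2 and 6 were the lowest for both FEZF2 and the myelin sum, and replicate 6 was the highest for CUX2.

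Transcription factors of forebrain interneurons were also higher in mPFC, though not all of them. Of 14 tested, 9 were higher and 3 (PROX1, NPAS3 and SOX6, named after their values were seen) were lower, while NPAS1 and MAF did not pass. With the myelin covariate 6 were higher and 1 lower. Here too a gene could be tested through mPFC alone, so the counts describe those 14. LHX6 (chromosome 11), of interneurons born in the medial ganglionic eminence, had 7.74 to 15.1 CPM (median 10.6) in mPFC and 0 to 0.322 CPM (median 0.0451) in brainstem. DLX1 (chromosome 2), of migrating interneurons, had 9.62 to 12.1 CPM in mPFC and 0 to 0.206 CPM in brainstem, where VRC and RTN held no count. DLX2, its neighbour in the same gene pair, had 469 counts in mPFC and 3 in brainstem, a 509-fold ratio (95% counting interval 173 to 2480). None of these 3 genes overlapped between mPFC and brainstem libraries, as the rule that named LHX6 and DLX1 required of them.

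HOX genes gave the reverse picture. The table held 37 HOX genes, of which 18 passed the filter on low counts, and all 18 were lower in mPFC; 14 of the 18 separated it from each region. A HOX gene passes the filter through the brainstem libraries in which it is expressed, so the count describes those genes and not the family. In mPFC, 21 of the 37 had no count in any library and the highest mean was 0.124 CPM. HOXC4 (chromosome 5) had no count in mPFC, against 32.3 to 62.4 CPM (median 54.7) in NTS, 25.8 to 34.2 CPM (median 33.5) in VRC and 1.38 to 7.22 CPM (median 3.08) in RTN. Counted against 3 counts over the group, HOXC4 was 1130-fold lower in mPFC than in the 18 brainstem libraries together. The lower limit of its counting interval was 921-fold. These values describe the pooled libraries and do not hold for each region, as HOXC4 was lowest in RTN. HOXA4 (chromosome 4) had 0 to 0.0934 CPM (median 0.0266) in mPFC and 3.5 to 53.9 CPM (median 30.6) in brainstem. The log2 fold change of HOXA4 was -9.1 ± 0.4 (adjusted p = 1.2e-15). HOXB2 (chromosome 19) had 0 to 0.177 CPM (median 0.0556) in mPFC and 11.5 to 50.4 CPM (median 18) in brainstem, a log2 fold change of -8.22 ± 0.29 (adjusted p = 1.49e-17). The 18 brainstem libraries stood above every mPFC library for all 3 genes, as the rule by which they were named required.

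The HOX genes did not separate mPFC equally well from the 3 regions. Summed over HOXA2 and HOXB2, the deposited RPKM averaged 0.135 ± 0.178 in mPFC, against 32.9 ± 6.07 in NTS, 20.2 ± 2.47 in VRC and 13.2 ± 2.63 in RTN (SD, n = 6 each). Summed over HOXA5 and HOXB5, it averaged 0.0255 ± 0.0283 in mPFC, against 279 ± 68.9 in NTS, 61.3 ± 25.6 in VRC and 2.08 ± 0.718 in RTN. HOXB5 had no count in mPFC. Counted against 3 counts over the group, it was 2540-fold lower there than in the 18 brainstem libraries together. The lower limit of its counting interval was 2070-fold. These values do not hold for each region. HOXB5 had 107 to 204 CPM in NTS, 17.9 to 56.5 CPM in VRC and 0.322 to 1.29 CPM in RTN. HOXB4 also had no count in mPFC, and at 0 to 0.231 CPM in RTN it overlapped mPFC. HOXB6, named after its values were seen, had 0 to 0.056 CPM in mPFC and 0 to 0.43 CPM in RTN, and did not pass the test between them (adjusted p = 0.235).

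Other hindbrain transcription factors were mostly lower in mPFC. Of 43 in the files 30 passed the filter on low counts, which a gene can pass through the brainstem alone, so the counts describe those 30. Of them, 26 were lower in mPFC, 2 were higher, EGR2 among them, and LHX4 and TBX3, named after their values were seen, did not pass. EGR2 patterns hindbrain segments in the embryo and is also an immediate early gene of adult neurons. Under the myelin covariate 11 were lower. The Iroquois gene IRX5 (chromosome 18) had 3 counts over the mPFC libraries, in replicates with at most 0.168 CPM, and 3.71 to 17.9 CPM (median 9.2) in brainstem, a 347-fold ratio (95% counting interval 119 to 1680). IRX3, its neighbour on chromosome 18, had 0.0644 to 0.467 CPM in mPFC and 5.07 to 22.4 CPM in brainstem. GBX2 (chromosome 3), of the anterior hindbrain, had 0.234 to 3.57 CPM in mPFC and 6.47 to 24.8 CPM in brainstem, with an adjusted p of 0.0543 under the myelin covariate. MAB21L2 (chromosome 17), named for its place among the largest differences, had 0.639 to 1.29 CPM in mPFC and 41.4 to 173 CPM in brainstem, a log2 fold change of -6.46 ± 0.3 (adjusted p = 2.46e-15).

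**Figure D2:**
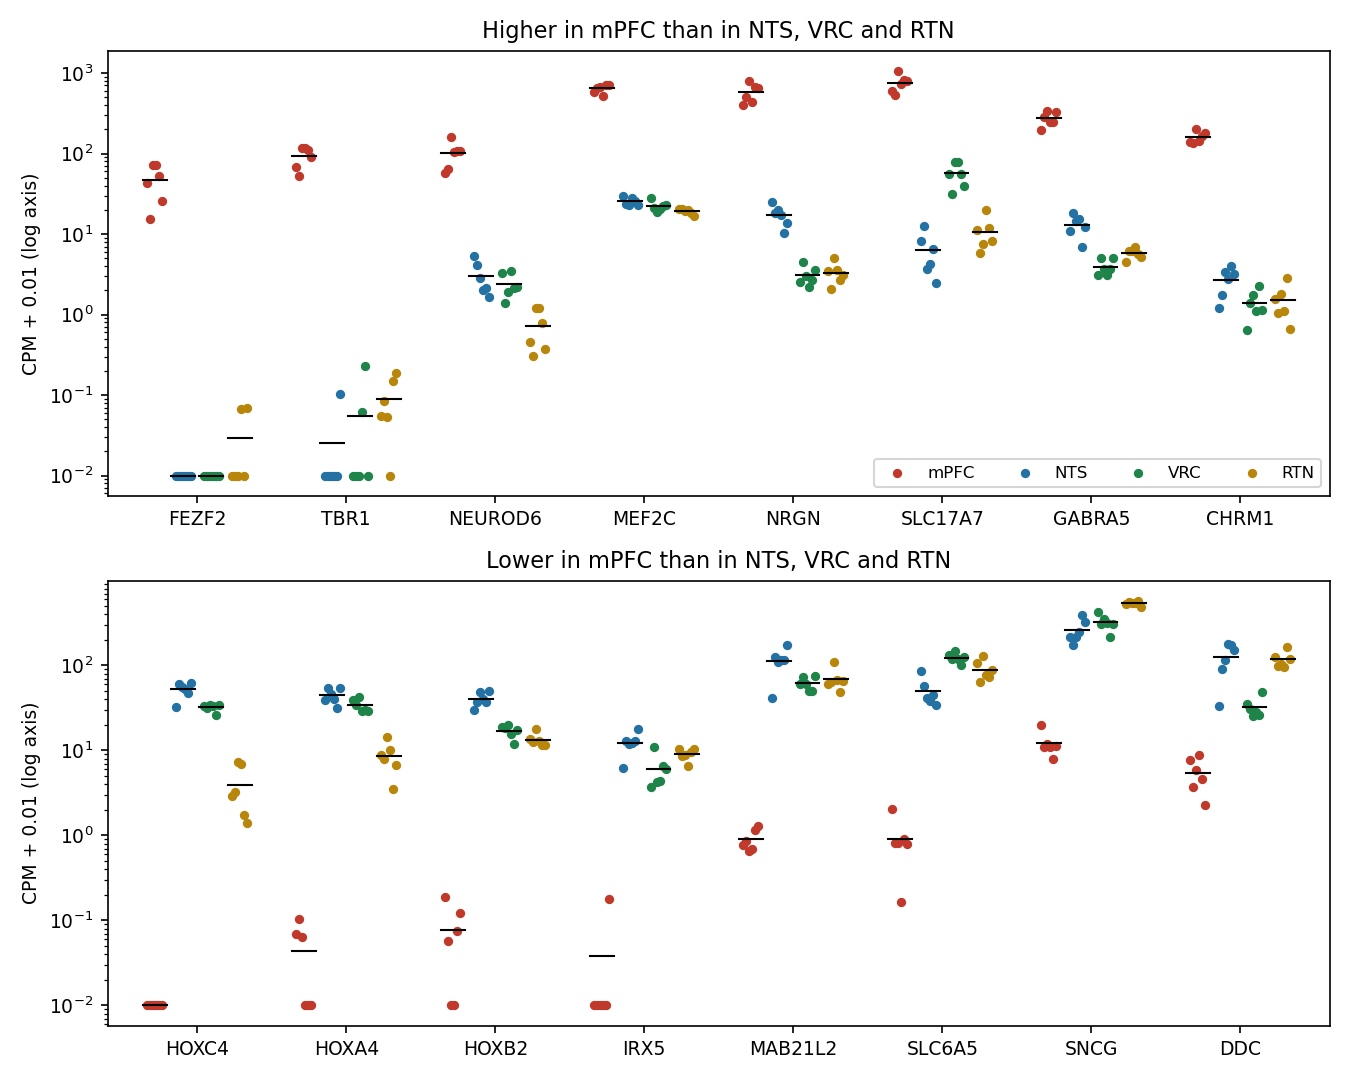
CPM + 0.01 on a log axis for 8 genes higher in mPFC (top) and 8 lower in mPFC (bottom), 1 point per library and a bar at the mean of each region's 6 libraries. In each gene all mPFC points lie on 1 side of all brainstem points. The rule that named FEZF2, TBR1, HOXC4, HOXA4, HOXB2, IRX5, MAB21L2 and SLC6A5 required this. Points at 0.01 are libraries with no count.

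Counted per length, a small set of genes was near on-off. At a deposited RPKM of at least 1 in all 6 mPFC libraries and under 0.1 in all 18 brainstem libraries there were 13 genes, 2 of them without a symbol. FEZF2 was the most abundant at 24.5 ± 12.1 RPKM (SD, n = 6) in mPFC, against 0.00321 ± 0.00933 RPKM (SD, n = 18) in brainstem. TBR1 was at 16.6 ± 4.96 RPKM in mPFC, a gene without a symbol (ENSCHIG00000012276, chromosome 13, named after its values were seen) at 9.42 ± 3.7 and OTX1 at 5.26 ± 0.777. In the other direction 2 genes qualified, HOXB2 and IRX5. HOXB2 averaged 0.0208 ± 0.0211 RPKM in mPFC and 7.15 ± 4.38 RPKM in brainstem, and IRX5 averaged 0.0108 ± 0.0263 RPKM in mPFC and 3.37 ± 1.51 RPKM in brainstem. The count of 15 depends on the limits: it was 34 with under 0.3 RPKM on the low side and 8 with at least 3 RPKM on the high side.

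The glutamate system differed in which genes carried it. Of 27 tested transporters and receptors (88.9% called, against 60.9% over all genes tested), 18 were higher in mPFC and 6 lower. Under the myelin covariate 8 and 3 were. SLC17A7 (chromosome 18), the vesicular glutamate transporter of cortical neurons, had 537 to 1060 CPM (median 765) in mPFC. It had 2.45 to 12.6 CPM (median 5.37) in NTS, 31.8 to 78.9 CPM (median 56) in VRC and 5.88 to 19.9 CPM (median 9.61) in RTN, a log2 fold change of 5.59 ± 0.24 for mPFC minus the brainstem mean (adjusted p = 4.35e-16). SLC17A6 (chromosome 29), the transporter of most subcortical glutamate neurons and named after its values were seen, had 9.31 to 21.8 CPM (median 14.3) in mPFC and 25.7 to 133 CPM (median 69.7) in brainstem, a log2 fold change of -2.17 ± 0.22 (adjusted p = 4.65e-09). Per length, SLC17A7 averaged 218 ± 47.5 RPKM and SLC17A6 3.89 ± 1.2 RPKM in mPFC (SD, n = 6 each). In NTS the order was turned round, with SLC17A7 at 1.82 ± 1.09 RPKM and SLC17A6 at 29 ± 7.58 RPKM. In VRC the 2 transporters were at 15.2 ± 5.22 and 17.9 ± 4.28 RPKM, within their spread. Among NMDA receptor subunits, GRIN2B had 18.3 to 24.9 CPM (median 22.6) in mPFC and 1.92 to 5.28 CPM (median 3.25) in brainstem. GRIN2A had 9.27 to 16.2 CPM (median 14.5) in mPFC and 0.416 to 4.56 CPM (median 1.77) in brainstem. Neither subunit overlapped between mPFC and brainstem libraries, but both were named for a small p in these same libraries.

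Genes of inhibitory transmission differed in both directions. Of 25 tested (100% called, against 60.9% over all genes tested), 18 were higher in mPFC and 7 lower. With the myelin covariate 5 and 5 were. GABRA5 (chromosome 21), a GABA-A receptor subunit found largely outside synapses, had 195 to 338 CPM (median 265) in mPFC and 3.07 to 18.2 CPM (median 5.91) in brainstem, a log2 fold change of 5.35 ± 0.13 (adjusted p = 1.78e-20). GABRA4 had 97.1 to 128 CPM (median 113) in mPFC and 6.65 to 43.4 CPM (median 15.3) in brainstem. Per length, GABRA5 was above GABRA4 in mPFC, at 202 ± 36.7 and 69.5 ± 5.69 RPKM (SD, n = 6). In each brainstem region the order was turned round, with GABRA5 at 9.83 ± 3.09 RPKM and GABRA4 at 23.1 ± 6.49 RPKM in NTS. They were at 2.71 ± 0.629 and 7.02 ± 2.55 RPKM in VRC, and at 3.92 ± 0.58 and 7.37 ± 1.36 RPKM in RTN.

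A transporter and a receptor of glycine were lower in mPFC, while other glycine receptor genes of the same list were not all so. GLRB and GLRA2, receptor subunits named after their values were seen, were higher in mPFC with log2 fold changes of 1.02 and 0.68, and GLRA3, named likewise, was lower at -1.08. SLC6A5 (chromosome 29), the glycine transporter of glycinergic neurons, had 0.156 to 2.01 CPM (median 0.796) in mPFC, against 34.6 to 86.4 CPM (median 42.9) in NTS, 102 to 147 CPM (median 122) in VRC and 63.3 to 128 CPM (median 82.9) in RTN. Its log2 fold change was -6.52 ± 0.31 (adjusted p = 5.6e-15). GLRA1 (chromosome 7), the adult glycine receptor alpha subunit and named after its values were seen, had 1 count over the 6 mPFC libraries, against 1.34 to 3.84 CPM (median 2.43) in brainstem. No library overlapped for either gene, which for SLC6A5 the rule that named it required.

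Genes for making, storing and moving monoamines and acetylcholine were lower in mPFC. Of 14 tested, 12 were lower, with the dopamine and noradrenaline transporters SLC6A3 and SLC6A2 (named after their values were seen) not passing, and 10 separated the regions; 8 were lower with the myelin covariate. Their median log2 fold change was -3.12. A gene such as CHAT could be tested through the brainstem alone, so the counts describe those 14. CHAT (chromosome 28), which makes acetylcholine, had 0 to 0.413 CPM (median 0.0234) in mPFC, against 1 to 52.8 CPM (median 12.9) in NTS, 1.4 to 5.01 CPM (median 2.57) in VRC and 32.5 to 61.1 CPM (median 39.2) in RTN. SLC5A7, the choline transporter, had 0.0644 to 2.6 CPM (median 0.354) in mPFC and 4.27 to 543 CPM (median 41.5) in brainstem. ACHE (chromosome 25), which breaks acetylcholine down, had 64.8 to 93.2 CPM (median 80.8) in mPFC and 310 to 739 CPM (median 526) in brainstem, a log2 fold change of -2.63 ± 0.12 (adjusted p = 1.74e-15). DDC (chromosome 4), the decarboxylase shared by serotonin and catecholamine synthesis, had 2.24 to 8.74 CPM (median 5.19) in mPFC and 25.6 to 181 CPM (median 97.6) in brainstem. SLC18A2, the vesicular monoamine transporter, had 0.56 to 1.29 CPM in mPFC and 3.95 to 56.9 CPM in brainstem. These 5 genes did not overlap, which for CHAT the rule that named it required. The others were named for a small p in these same libraries.

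Enzymes of single monoamines differed between the brainstem regions. TPH2 (chromosome 5), for serotonin, had 1.79 to 3.43 CPM (median 2.79) in mPFC and 58.5 to 120 CPM (median 74.7) in RTN. NTS, at 1.5 to 6.08 CPM (median 2.7), covered the mPFC range, and the log2 fold change of mPFC minus NTS was -0.19. TH (chromosome 29), for catecholamines, had 0.616 to 4.63 CPM (median 1.26) in mPFC and 23.6 to 119 CPM (median 90.5) in NTS, while VRC, at 1.81 to 15.6 CPM (median 4.1), overlapped mPFC. DBH, for noradrenaline, had 1 to 2.18 CPM (median 1.34) in mPFC and 2.31 to 30.7 CPM (median 8.45) in brainstem, with no overlap. With the myelin covariate TPH2 (log2 fold change -0.5, adjusted p = 0.779) and DBH (-2.05, adjusted p = 0.235) no longer passed.

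Receptors for the same transmitters lay more often on the cortical side. Of 28 tested (82.1% called, against 60.9% over all genes tested), 17 were higher in mPFC and 6 lower. With the myelin covariate 4 and 3 were. CHRM1 (chromosome 29), the main muscarinic receptor of cortical neurons, had 137 to 201 CPM (median 152) in mPFC and 0.63 to 4 CPM (median 1.63) in brainstem, a log2 fold change of 6.48 ± 0.19 (adjusted p = 4.46e-19). DRD1 (chromosome 10), the D1 dopamine receptor, had 42.8 to 65.3 CPM (median 46.1) in mPFC and 0.36 to 6.71 CPM (median 1.64) in brainstem. CHRNA4, a nicotinic receptor subunit, had 31.1 to 61.5 CPM (median 48.3) in mPFC and 2.81 to 13.2 CPM (median 7.43) in brainstem. All 3 were without overlap, but all 3 were named for a small p in these same libraries.

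Neuropeptides fell into a cortical and a brainstem group. Of 23 tested (82.6% called, against 60.9% over all genes tested), 6 were higher in mPFC and 13 lower. Under the myelin covariate 3 and 3 were. CCK (chromosome 22), a peptide of pyramidal neurons and some interneurons, had 674 to 1080 CPM (median 746) in mPFC and 11.4 to 98 CPM (median 32.3) in brainstem, a log2 fold change of 4.53 ± 0.19 (adjusted p = 6.6e-16). CORT, a somatostatin relative of cortical interneurons, had 23.6 to 52.5 CPM (median 30) in mPFC and 0.445 to 2.14 CPM (median 1.08) in brainstem. VIP, of another interneuron class, had 37.9 to 86.2 CPM (median 71.2) in mPFC and 0 to 2.81 CPM (median 0.731) in brainstem. On the other side, TAC1 (chromosome 4), the substance P precursor, had 8.11 to 15.7 CPM (median 12.9) in mPFC and 17.8 to 214 CPM (median 93.6) in brainstem. PENK (chromosome 14), the enkephalin precursor named after its values were seen, had 14.5 to 106 CPM (median 80.6) in mPFC and 378 to 1640 CPM (median 731) in brainstem. No library overlapped for any of these 5 peptides, which apart from PENK were named for a small p in these same libraries. PENK was lowest in mPFC replicates 2 and 6, at 14.5 and 20.7 CPM, the same libraries in which FEZF2 was lowest, and it did not pass with the myelin covariate (adjusted p = 0.1).

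Postsynaptic and calcium signalling genes of forebrain neurons were higher in mPFC without exception. All 31 tested were higher, against 30.9% of all genes tested, and 29 of them separated the regions. The median log2 fold change was 2.97, and 25 were higher with the myelin covariate. The list was drawn up as genes of forebrain neurons, with earlier results of these data known. A gene could also pass the filter on low counts through mPFC alone, so the counts describe those 31. CAMK2A (chromosome 7), the kinase of excitatory synapses, had 2920 to 4330 CPM (median 3430) in mPFC, against 101 to 211 CPM (median 171) in NTS, 19.4 to 49.5 CPM (median 35.4) in VRC and 15.2 to 36.1 CPM (median 25.9) in RTN. This was a log2 fold change of 6.1 ± 0.17 (adjusted p = 2.44e-19). NRGN (chromosome 29), which binds calmodulin in dendrites, had 398 to 795 CPM (median 579) in mPFC and 2.06 to 24.9 CPM (median 3.53) in brainstem. ITPKA, which phosphorylates inositol trisphosphate in spines, had 148 to 236 CPM (median 178) in mPFC and 0.599 to 2.79 CPM (median 1.55) in brainstem, a log2 fold change of 6.94 ± 0.15 (adjusted p = 1.95e-21). CACNG3, an AMPA receptor auxiliary subunit, had 269 to 381 CPM (median 327) in mPFC and 10.5 to 40.9 CPM (median 17.8) in brainstem. ICAM5, a telencephalic neuron adhesion molecule named after its values were seen, had 394 to 582 CPM (median 463) in mPFC and 0.6 to 12.6 CPM (median 2.57) in brainstem. DDN (chromosome 5), the dendritic protein dendrin, had 38.5 to 52.8 CPM (median 47.5) in mPFC and 0 to 0.267 CPM (median 0) in brainstem. In CAMK2A and NRGN the NTS libraries stood nearest to mPFC, with ranges above those of VRC and RTN.

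Markers of cortical interneuron subclasses and layers were less uniform. Of 15 interneuron subclass markers 10 were higher in mPFC and 3 lower (CALB2, PVALB and CHODL, the last 2 named after their values were seen), and with the myelin covariate 3 and 2. LAMP5 had 490 to 850 CPM (median 614) in mPFC and 111 to 319 CPM (median 245) in brainstem. CALB2, the calcium-binding protein calretinin, had 25.4 to 59.3 CPM (median 31.7) in mPFC and 101 to 323 CPM (median 155) in brainstem, a log2 fold change of -2.22 ± 0.2 (adjusted p = 9.27e-10). Of 22 cortical layer markers 11 were higher and 3 lower (HTR2C, NXPH4 and CARTPT, named after their values were seen), and 5 were higher with the myelin covariate. The share of layer markers called, 63.6%, was about the 60.9% called over all genes tested, while that of the subclass markers was 86.7%. PCP4, TLE4 and CALB1, layer markers named after their values were seen, did not pass the test.

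General neuronal genes differed less and in both directions. The 14 pan-neuronal markers summed to 10200 to 12800 CPM in mPFC and 6340 to 12500 CPM in brainstem, so the sums overlapped. Of the 14 (92.9% called, against 60.9% over all genes tested), 10 were higher in mPFC and 3 lower. With the myelin covariate 4 and 3 were. STX1A (chromosome 25), a syntaxin of the presynaptic membrane, had 81.6 to 245 CPM (median 121) in mPFC and 1.72 to 17.2 CPM (median 4.72) in brainstem. RBFOX3, which encodes the neuronal antigen NeuN, had 47.5 to 74.4 CPM (median 62.4) in mPFC and 4.57 to 13.4 CPM (median 10.9) in brainstem. SNAP25, named after its values were seen, had 3210 to 4480 CPM (median 3770) in mPFC and 1460 to 3230 CPM (median 2100) in brainstem, with a log2 fold change of 0.85 ± 0.09 (adjusted p = 7.52e-09). UCHL1 and STMN2, also chosen after their values were seen, were lower in mPFC, with log2 fold changes of -0.67 ± 0.12 and -1 ± 0.15.

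Genes of large axons were lower in mPFC. Of 16 tested, 11 were lower and 2 higher (SCN8A and KCNA2, named after their values were seen), and with the myelin covariate 7 and 1. In the main fit 81.2% of them were called, against 60.9% over all genes tested. SNCG (chromosome 28), a synuclein of motor and sensory axons, had 7.86 to 20 CPM (median 11.1) in mPFC and 176 to 575 CPM (median 335) in brainstem, a log2 fold change of -4.87 ± 0.21 (adjusted p = 5.38e-16). NEFM (chromosome 8), a neurofilament subunit, had 195 to 455 CPM (median 256) in mPFC and 497 to 5760 CPM (median 1890) in brainstem. The 2 genes had no overlap. SPP1, secreted by large neurons and by some glia, had 72 to 155 CPM (median 83.4) in mPFC and 290 to 1420 CPM (median 1180) in brainstem, and with the myelin covariate its adjusted p was 0.0588.

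**Figure D3:**
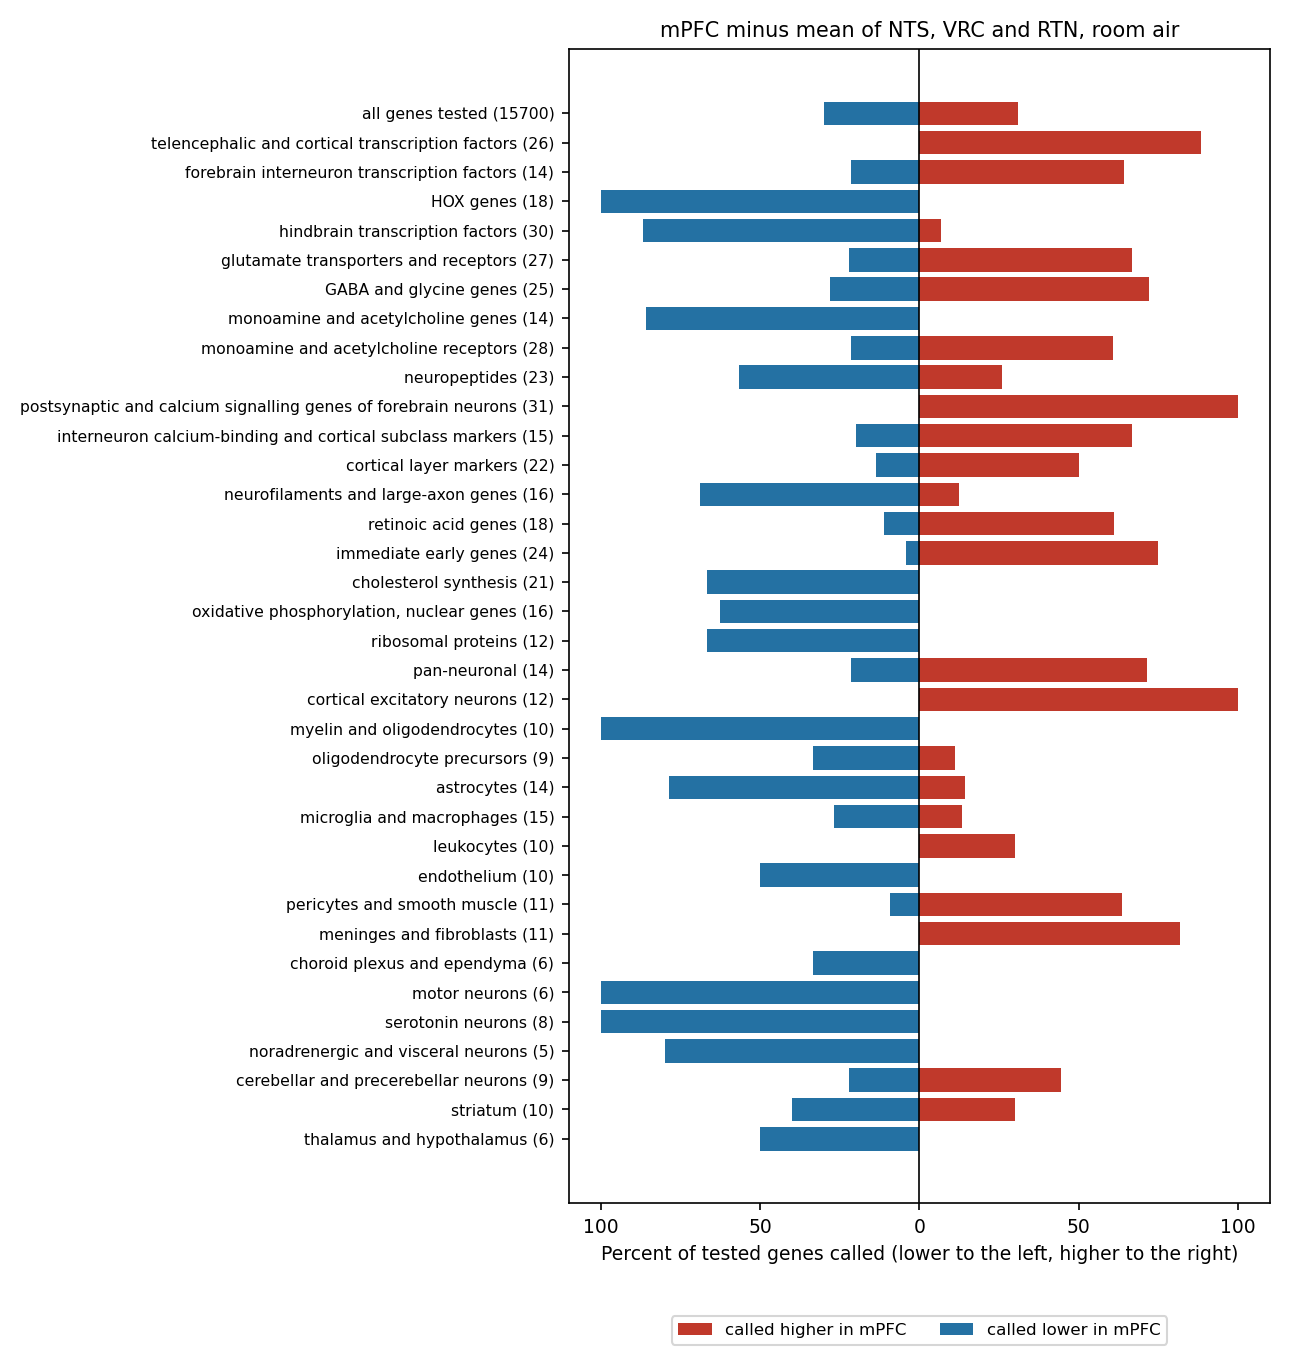
Percent of the tested genes of each list that were called higher (red, to the right) or lower (blue, to the left) in mPFC than in the mean of NTS, VRC and RTN, with the number of tested genes in brackets and all 15700 tested genes in the top row. The postsynaptic and cortical excitatory neuron lists lie wholly to the right and the HOX, myelin, motor neuron and serotonin neuron lists wholly to the left.

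Marker lists for other cell types were read in the same way. All 12 cortical excitatory neuron markers were higher in mPFC, and they summed to 4960 to 6880 CPM in mPFC and 86.8 to 351 CPM in brainstem. All 6 motor neuron and all 8 serotonin neuron markers were lower in mPFC than in the brainstem mean, and with the myelin covariate 6 and 2 were. Of them, 5 motor neuron and 3 serotonin neuron markers separated mPFC from each region. The motor neuron markers summed to 8.18 to 29.9 CPM in mPFC and 26.9 to 2040 CPM in brainstem, where RTN held 1210 to 2040 CPM. The serotonin neuron markers summed to 7.34 to 10.4 CPM in mPFC and 22.5 to 276 CPM in brainstem. A marker can pass the filter on low counts through mPFC or the brainstem alone, so the list counts describe the markers tested. Of 5 noradrenergic and visceral neuron markers 4 were lower, and 2 with the covariate. Of 10 striatal markers 3 were higher and 4 lower, and of 9 cerebellar and precerebellar markers 4 were higher and 2 lower (1 higher with the covariate). The shares called in the striatal and cerebellar lists, 70% and 66.7%, were near the 60.9% called over all genes tested. Of 6 choroid plexus and ependyma markers 2 were lower, of 6 thalamus and hypothalamus markers 3 were lower (none with the covariate), and no blood marker passed the filter on low counts. At 33.3% and 50% called, the choroid plexus and thalamus lists lay below the share over all genes tested.

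Myelin and oligodendrocyte genes were lower in mPFC, as all 10 tested markers passed in that direction with a median log2 fold change of -2.7. MAG (chromosome 18), of the inner myelin membrane, had 137 to 485 CPM (median 256) in mPFC and 509 to 3540 CPM (median 1840) in brainstem. CNP had 250 to 751 CPM (median 439) in mPFC and 886 to 4460 CPM (median 2390) in brainstem, and neither MAG nor CNP overlapped. With the myelin covariate, which is built from such markers, CNP was at 0.11 and MAG at 0.04 on the log2 scale, and neither passed. SOX10, a factor of the whole oligodendrocyte lineage, had 9.53 to 19.2 CPM in mPFC and 20.9 to 117 CPM in brainstem. Of 9 precursor markers 3 were lower (OLIG1, OLIG2 and SOX10) and 1 higher (PDGFRA), and none passed with the covariate. The share of precursor markers called was 44.4%, against 60.9% over all genes tested. MBP was not analysed here. The serine protease KLK6 and the lipid carrier APOD, both named after their values were seen, had some of the larger differences on this side: KLK6 had 6.78 to 43.5 CPM (median 16.5) in mPFC and 105 to 1740 CPM (median 760) in brainstem, and APOD had 264 to 650 CPM (median 369) in mPFC and 1090 to 11400 CPM (median 5360) in brainstem. Under that covariate neither passed, at log2 fold changes of -0.94 (adjusted p = 0.211) and -0.52 (adjusted p = 0.231).

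Astrocyte markers were mostly lower in mPFC, with the glutamate transporters as the exception. Of 14 tested, 11 were lower and SLC1A2 and SLC1A3 (the second named after its values were seen) were higher; with the myelin covariate 8 were lower and none of the 14 was higher. In the main fit 92.9% of the list were called, against 60.9% over all genes tested. The list summed to 7450 to 11900 CPM in mPFC and 11700 to 30700 CPM in brainstem. S100B (chromosome 1) had 324 to 553 CPM (median 393) in mPFC and 901 to 2170 CPM (median 1360) in brainstem, a log2 fold change of -1.72 ± 0.14 (adjusted p = 2.51e-10). GFAP, the intermediate filament named after its values were seen, had 1430 to 4450 CPM (median 3560) in mPFC and 3730 to 21400 CPM (median 12700) in brainstem. SLC1A2 (chromosome 15), which clears glutamate from the synapse, had 96.2 to 176 CPM (median 105) in mPFC and 25.9 to 62.3 CPM (median 44.1) in brainstem, a log2 fold change of 1.39 ± 0.15 (adjusted p = 2.71e-08). S100B and SLC1A2 had no overlap between mPFC and brainstem, in opposite directions, and SLC1A2 did not pass with the myelin covariate (adjusted p = 0.463).

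Microglial markers differed little, apart from those of macrophages at vessels and meninges. Of 15 tested, 4 were lower in mPFC and 2 higher, CD163 and MRC1, and with the myelin covariate 1 was higher. The share called was 40%, against 60.9% over all genes tested. CD163 (chromosome 5) had 19.1 to 40.9 CPM (median 25.4) in mPFC and 0.11 to 4.04 CPM (median 0.795) in brainstem, a log2 fold change of 4.48 ± 0.36 (adjusted p = 8.73e-11). TMEM119, of resident microglia, had 8.18 to 11.8 CPM (median 9.12) in mPFC and 8.96 to 33.6 CPM (median 15.6) in brainstem, which overlapped, and did not pass with the myelin covariate (adjusted p = 0.89). The whole list summed to 470 to 1150 CPM in mPFC and 470 to 1530 CPM in brainstem. Of 10 leukocyte markers 3 were higher in mPFC, about the 30.9% of all genes tested, and of 10 endothelial markers 5 were lower, against 30.1%. None of these 20 markers passed with the covariate.

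Markers of the meninges and of smooth muscle were higher in mPFC. Of 11 meningeal and fibroblast markers 9 were higher, with a median log2 fold change of 2.17, and of 11 pericyte and smooth muscle markers 7 were higher and 1 lower. The shares called in these lists were 81.8% and 72.7%, against 60.9% over all genes tested. None of either list was higher with the myelin covariate. The meningeal markers summed to 172, 1280, 250, 1420, 784 and 685 CPM in mPFC replicates 1 to 6, and to 98.7 to 504 CPM in brainstem. Replicates 1 and 3 thus lay within the brainstem range and the other 4 above it. COL1A1 (chromosome 19), a fibrillar collagen, had 7.03, 90.2, 14.7, 83.6, 54.2 and 81.8 CPM in mPFC and 2.41 to 39.4 CPM (median 5.09) in brainstem, a log2 fold change of 3.04 ± 0.41 (adjusted p = 6.33e-07). IGF2 (chromosome 29), a growth factor of the leptomeninges, had 7.21 to 138 CPM (median 61.1) in mPFC and 2.94 to 12.3 CPM (median 6.35) in brainstem, and like COL1A1 it overlapped. LUM, a proteoglycan of fibroblasts, had 27.8 to 83.9 CPM (median 33) in mPFC and 8.37 to 24 CPM (median 11.3) in brainstem. Under the same covariate COL1A1 turned to -1.13 on the log2 scale, and IGF2 and LUM were at 1.62 and 1.56, none of them passing.

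**Figure D4:**
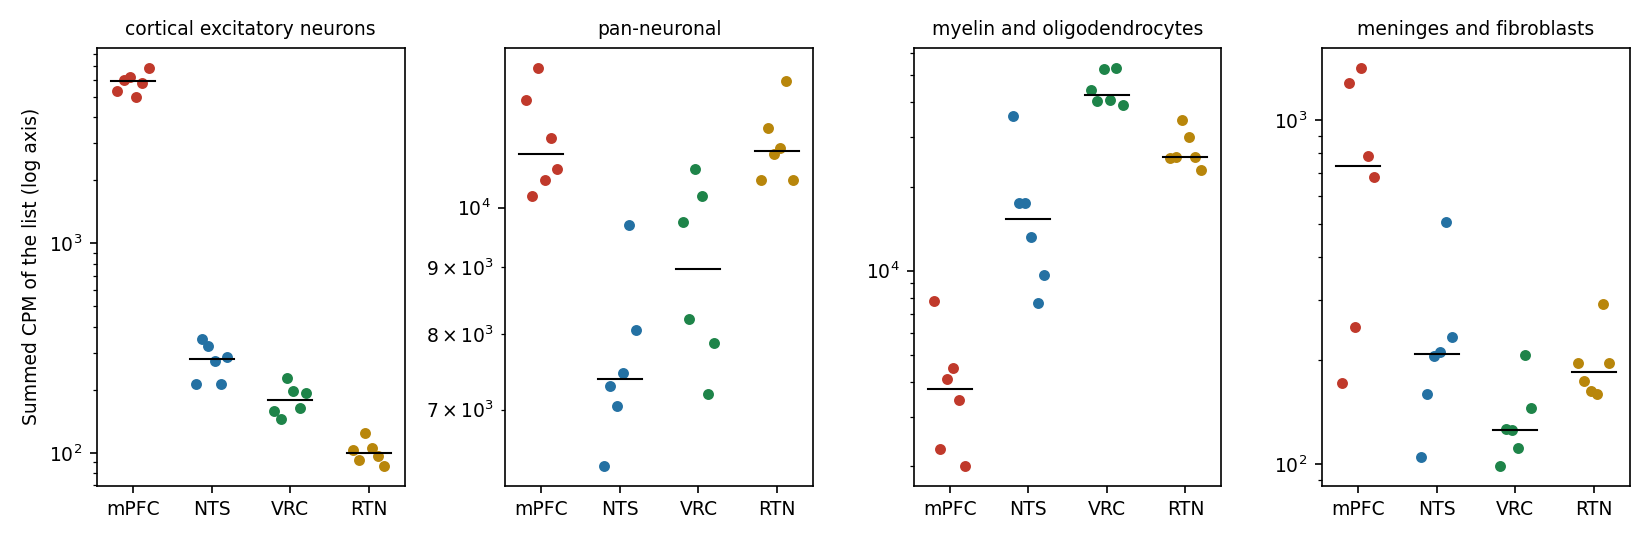
Summed CPM of 4 marker lists on log axes, with a different range in each panel, 1 point per room air library and a bar at the median of each region. The cortical excitatory sums lie above 4960 in mPFC and below 351 in brainstem, while the meningeal sums of mPFC span 172 to 1420 and overlap those of the brainstem.

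Retinoic acid genes were mostly higher in mPFC. Of 18 tested, 11 were higher in mPFC and 2 lower, and with the myelin covariate 2 were higher. The share called was 72.2%, and over all genes tested it was 60.9%, with 30.9% higher. CRABP2 (chromosome 3), which carries retinoic acid to its receptor, was at 12.8, 80.8, 9.79, 94.2, 53.7 and 49.2 CPM in mPFC replicates 1 to 6, and at 0.3 to 1.13 CPM (median 0.525) in brainstem. Its log2 fold change was 6.53 ± 0.31 (adjusted p = 5.8e-15), with no overlap. The 2 lowest CRABP2 values were in replicates 1 and 3, the libraries with the lowest meningeal sums. CYP26A1 (chromosome 26), which breaks retinoic acid down, was at 24, 2.9, 29.5, 30.1, 12 and 4.26 CPM in the same libraries and at 0 to 2.34 CPM (median 0.328) in brainstem, a log2 fold change of 5.45 ± 0.48 (adjusted p = 4.91e-10). CYP26A1 was lowest in replicates 2 and 6, as FEZF2 and PENK were. The part of the meninges in the CRABP2 difference was not tested. ALDH1A2, which makes retinoic acid, belongs to both the retinoic acid and the meningeal list.

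Immediate early genes, which neurons switch on with activity, were higher in mPFC. Of 24 tested (79.2% called, against 60.9% over all genes tested), 18 were higher and 1 lower (ATF3, named after its values were seen). Among them 15 separated the regions, and the median log2 fold change of the list was 1.99. With the myelin covariate 6 were higher. ARC (chromosome 14), which regulates AMPA receptors at synapses, had 65.2 to 205 CPM (median 103) in mPFC and 0.91 to 5.96 CPM (median 2.98) in brainstem, a log2 fold change of 5.24 ± 0.17 (adjusted p = 4.8e-18). EGR3 had 24.9 to 46.4 CPM (median 31.7) in mPFC and 0 to 0.783 CPM (median 0.28) in brainstem. EGR1 and EGR4, named after their values were seen, had 111 to 225 CPM (median 139) and 57.2 to 153 CPM (median 98.6) in mPFC, against 4.74 to 36.5 CPM (median 9.55) and 0.14 to 7.07 CPM (median 1.53) in brainstem. KLF10 had 58.6 to 99.8 CPM in mPFC and 8.75 to 19.9 CPM in brainstem, and DUSP6, a brake on ERK signalling, had 122 to 208 CPM in mPFC and 32.5 to 56.6 CPM in brainstem. None of these 6 genes overlapped, but all were named for a small p in these same libraries or after their values were seen.

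Metabolic lists shifted by little. Of 21 cholesterol synthesis genes 14 were lower in mPFC, with a median log2 fold change of -0.42. The share called was 66.7%, against 60.9% called and 30.1% lower over all genes tested. SC5D had 72.4 to 97.1 CPM (median 85.8) in mPFC and 137 to 304 CPM (median 203) in brainstem, and CYP51A1 had 89.9 to 120 CPM (median 105) in mPFC and 145 to 382 CPM (median 222) in brainstem. CYP51A1 had an adjusted p of 0.0533 with the myelin covariate. Of 16 nuclear genes of oxidative phosphorylation 10 were lower, and of 12 ribosomal protein genes 8 were lower, with medians of -0.21 and -0.34. The shares called in these 2 lists, 62.5% and 66.7%, were about the 60.9% called over all genes tested. With the myelin covariate 8 cholesterol genes were lower and none of the 28 genes of the other 2 lists passed. Reads of ribosomal protein genes may be shared with near-identical copies, so their values are uncertain.

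Several genes outside these lists were among the largest differences. LOXHD1 (chromosome 24), known from inner ear hair cells, had 5.8 to 21.4 CPM (median 15.3) in mPFC and 0 to 0.28 CPM (median 0) in brainstem. TYRP1 (chromosome 8), an enzyme of melanin synthesis, was at 16.7, 19.4, 0.745, 18, 3.61 and 8.46 CPM in mPFC replicates 1 to 6 and at 0 to 0.221 CPM in brainstem, a log2 fold change of 8.93 ± 0.59 (adjusted p = 9.3e-11). Its spread within mPFC was wide, and the rule by which it was named required no overlap. ANGPTL5, an angiopoietin-like secreted protein, had 33.3 to 63.9 CPM (median 54.5) in mPFC and 0 to 0.735 CPM (median 0.285) in brainstem. OVOL2, an epithelial zinc finger factor, had 8.79 to 12.2 CPM in mPFC and 0 to 0.35 CPM in brainstem, and ATF7IP2 had 4.16 to 9.25 CPM in mPFC and 0 to 0.35 CPM in brainstem. In the other direction, DLK1 (chromosome 21), an imprinted Notch-like protein, had 0.0532 to 0.515 CPM (median 0.189) in mPFC and 4.97 to 33.8 CPM (median 25.1) in brainstem. CRSP-1, a peptide of the calcitonin family, had 3 counts in mPFC, against 0.572 to 35.2 CPM (median 2.96) in brainstem, a 334-fold ratio (95% counting interval 114 to 1620).

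The same separation was looked for in libraries that had played no part in finding it. In the 24 mild CH libraries, fitted on their own, 926 (82.7%) of the 1120 higher genes and 529 (66.4%) of the 797 lower genes again separated mPFC from all 3 regions. In the 24 moderate CH libraries the numbers were 827 (73.8%) and 433 (54.3%). For comparison, 6.52% of the 15821 genes tested in mild CH separated as higher and 4.17% as lower, together 10.7%. In moderate CH the shares of 15697 genes were 6.26% and 3.45%, together 9.72%. No gene separated in the opposite direction. The median log2 fold change of the higher genes was 2.14 in mild CH and 2.01 in moderate CH, against 2.145 in room air, and that of the lower genes was -1.87 and -1.78, against -1.92. The room air medians come from the libraries in which the genes were chosen.

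TBR1, SLC17A7, CAMK2A, SLC6A5 and ARC gave values of the same direction in the CH animals, but not every named gene did. The leukocyte marker CD2 had a log2 fold change of 1.13 in room air and -0.87 in mild CH. The ribosomal protein gene RPL32 had -0.53 in room air and 0.07 in moderate CH. TBR1 had a log2 fold change of 10.52 in mild CH and 10.7 in moderate CH, against 10.98 in room air. SLC17A7 had 5.85 and 5.57, against 5.59, and CAMK2A had 6.32 and 6.11, against 6.1. SLC6A5 had -6.99 and -7.36, against -6.52. ARC had 4.39 and 4.1, against 5.24. The change of the mPFC minus brainstem difference with CH was tested across 16372 genes in all 72 libraries by edgeR, and 0 genes passed in mild CH (smallest adjusted p = 0.448) and 0 in moderate CH (smallest adjusted p = 0.881). At an unadjusted p under 0.05 there were 372 genes (2.27%) in mild CH and 846 (5.17%) in moderate CH. With the replicate number as a block there were 622 and 1463, and again 0 genes passed (smallest adjusted p = 0.163 in mild CH and 0.528 in moderate CH). ARC was among the 8 genes of smallest p in moderate CH, with a difference of -1.12 ± 0.31 (standard error, adjusted p = 0.881).

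**Figure D5:**
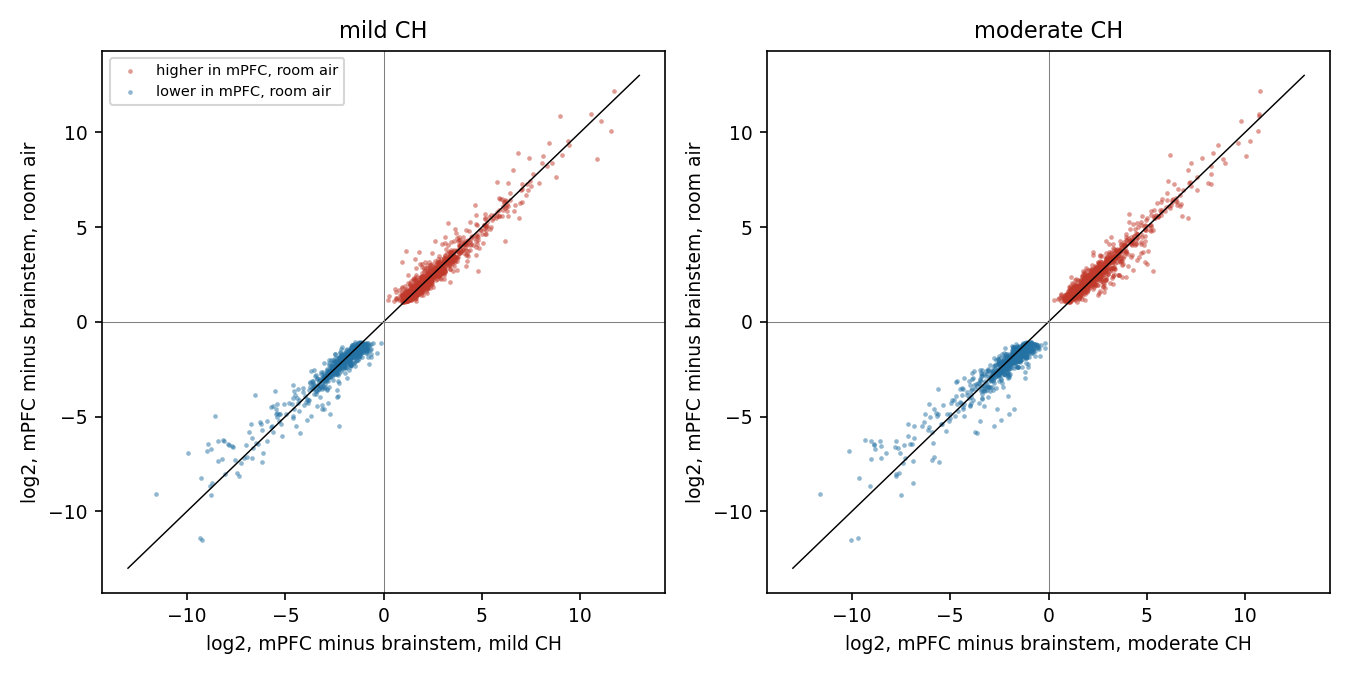
Fitted log2 fold change of mPFC minus the brainstem mean for each gene that separated the regions in room air, in mild CH (left) and moderate CH (right) on the horizontal axis against room air on the vertical axis, with the line of equal values. The points keep their sign in both panels and lie along the line, and the largest fitted values belong to genes with few or no counts on 1 side.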

How the data were processed

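The authors deposited 1 table of read counts per gene and RPKM values for 72 libraries, with a gene length column (other annotation, not a measurement). Per the labels' protocols, total RNA was column-extracted and made into libraries with the SMARTer Universal Low Input RNA kit. Per the submitters' processing notes the tools were FastQC, Trimmomatic, STAR, featureCounts and edgeR. The sources used here give no versions, genome build or strand setting, so paralogs, overlapping genes and antisense genes are uncertain.

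From the deposited counts of the 24 room air libraries, genes with low counts were dropped by filterByExpr (minimum count 10), libraries were scaled by TMM, and edgeR 4.0.16 (R 4.3.3) was run as a quasi-likelihood test with 1 mean per region and Benjamini-Hochberg adjustment over the 15700 genes kept. mPFC was set against the mean of the 3 brainstem regions and against each of them. Standard errors are the log2 fold change divided by the root of the F statistic. Genes with at most 3 counts on a side are given as ratios of counts with a 95% interval, which covers counting error only. With no count on a side, the ratio is taken against 3 counts and given with the lower limit of that interval. The authors' deposited RPKM were used only for levels between genes and for the near on-off genes. DESeq2 1.42.0, limma 3.58.1, other scalings, no filter, all 72 libraries, the replicate number as a block and each library left out were the alternatives.

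The members and gene lists were chosen with earlier results of these data known. Named genes are, in each direction, the 15 separating genes with the largest weakest-region fold that carry a symbol, average 5 CPM or more on the higher side and show no overlap, up to 4 members of smallest p of each list, fixed defining markers, and the near on-off genes (at most 6 where a direction held over 10). Others are said to have been chosen after their values were seen. On simulated counts for 15614 genes of this comparison, 50% of genes changed 1.5-fold, 87.9% of those changed 2-fold and 98.5% of those changed 4-fold were called, and 0.0519% of unchanged genes were. Of the genes changed 2-fold and 4-fold, 19.7% and 90.9% met the separating rule. In the simulation 15416 genes were unchanged, the brainstem regions shared 1 mean and libraries were drawn independently. The data differ in this, so these rates may not carry over to them. No sequences are shown, and some genes that the rule names are not reported here.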

Additional observations from a re-analysis of the deposited data

Results flagged for a closer look

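In each group of 6 libraries with a mean of at least 1 CPM, the highest or lowest library was marked where its gap to the nearest other library as a share of the group's range exceeded Dixon's 95% critical value. Of 338 groups of named genes, 44 (13%) were marked, and chance marks about 1 in 20. Values are CPM in room air.

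In mPFC replicate 1 the highest value was that of SNCG at 20 (others 7.86 to 11.9). In mPFC replicate 2 the highest value was that of TH at 4.63 (others 0.616 to 1.77) and ACTA2 at 480 (others 67 to 184). In mPFC replicate 3 the highest value was that of GBX2 at 3.57 (others 0.234 to 1.42), DRD1 at 65.3 (others 42.8 to 48.6) and CCK at 1080 (others 674 to 826). Likewise in mPFC replicate 3 the highest value was that of CORT at 52.5 (others 23.6 to 32.8), CD163 at 40.9 (others 19.1 to 26.7) and KLF10 at 99.8 (others 58.6 to 68.2). In mPFC replicate 4 the highest value was that of LUM at 83.9 (others 27.8 to 44.4).

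In NTS replicate 1 the highest value was that of SPP1 at 1120 (others 290 to 487) and CNP at 2860 (others 886 to 1570). Likewise in NTS replicate 1 the highest value was that of MAG at 1960 (others 509 to 1040), GJB1 at 49.6 (others 9.09 to 19.4) and NDUFB10 at 241 (others 152 to 165). Likewise in NTS replicate 1 the highest value was that of RPS10 at 120 (others 59.8 to 73.5), HOXB6 at 43.6 (others 3.97 to 12.5) and APOD at 6280 (others 1090 to 2520). Likewise in NTS replicate 1 the highest value was that of KLK6 at 892 (others 105 to 251). In NTS replicate 5 the highest value was that of CHAT at 52.8 (others 1 to 17.2), SLC5A7 at 152 (others 8.89 to 56) and CHRNA4 at 13.2 (others 7.42 to 8.5). Likewise in NTS replicate 5 the highest value was that of NEFM at 3930 (others 497 to 1430), LUM at 22.4 (others 8.99 to 12) and COL1A1 at 39.4 (others 2.41 to 9.6). Likewise in NTS replicate 5 the highest value was that of NEFL at 8530 (others 1660 to 3990). In NTS replicate 5 the lowest value was that of GBX2 at 10.7 (others 20.6 to 24.8). In NTS replicate 6 the highest value was that of EGR1 at 36.5 (others 10.3 to 18) and EGR4 at 7.07 (others 0.201 to 2.14). NTS replicate 1 held 9 of the marks and is the library whose summed myelin markers stood apart. The part of tissue content in these values was not tested.

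In VRC replicate 1 the highest value was that of S100B at 2170 (others 1270 to 1490) and RPS10 at 142 (others 82.7 to 102). In VRC replicate 1 the lowest value was that of KLF10 at 8.75 (others 13.9 to 14.7). In VRC replicate 2 the highest value was that of TAC1 at 48.4 (others 17.8 to 28.9). In VRC replicate 3 the highest value was that of DRD1 at 5.72 (others 1.05 to 1.71). In VRC replicate 4 the highest value was that of CYP26A1 at 2.34 (others 0.825 to 1.35). In VRC replicate 5 the highest value was that of LUM at 24 (others 8.37 to 11). In VRC replicate 5 the lowest value was that of HOXC4 at 25.8 (others 31.7 to 34.2). In VRC replicate 6 the lowest value was that of SPP1 at 1160 (others 1350 to 1420).

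In RTN replicate 3 the highest value was that of HOXB2 at 17.7 (others 11.5 to 13.7), HOXA2 at 15.7 (others 9.49 to 11.5) and MAB21L2 at 110 (others 49.3 to 67.3). Likewise in RTN replicate 3 the highest value was that of CRSP-1 at 7.05 (others 1.2 to 2.93). In RTN replicate 5 the highest value was that of CHAT at 61.1 (others 32.5 to 43.1). In RTN replicate 6 the highest value was that of SLC5A7 at 543 (others 144 to 229).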

How the results depend on the processing

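Leaving out each library in turn gave 4594 to 4969 genes higher and 4423 to 4948 lower than the brainstem mean, 1092 to 1202 and 718 to 828 separating genes, and 7043 to 7770, 9024 to 9770 and 8190 to 8964 genes different from NTS, VRC and RTN. DESeq2 gave 4898 and 4865 genes against the mean, limma 5054 and 4915, and no filter on low counts 5128 and 4901. The myelin covariate moved the counts to 1096 and 998 genes against the mean, 411 and 351 separating genes, and 3206, 1100 and 2459 genes against NTS, VRC and RTN. Under it CNP (0.11), MAG (0.04), COL1A1 (-1.13), ACTA2 (-1.02) and RPS10 (0.04) reversed on the log2 scale. A log2 fold of at least 2 left 407 and 205 separating genes, and no threshold gave 2841 and 2630. The near on-off count was 34 with under 0.3 RPKM and 8 with at least 3 RPKM, against 15. HOXB6 did not pass without RTN replicate 3 (log2 fold change -5.48, adjusted p = 0.0507). When replicate number entered as a block, 5162 and 5103 genes were called and 1134 and 801 separated, of which 1096 and 774 were among those of the fit without it. Of 36 pairs of regions and numbers, 34 deviated together with a correlation over 0.1 (median 0.261, lowest -0.041), which misses the rule set for pairing. Among 180 pairs of libraries with different numbers and regions, 6 were over 0.1 (median -0.058). Each of the 24 libraries correlated best with its own number, a hint from the data and not from the design. Depth limits the statements on genes at 0, since 3 counts over the group are 0.0273 CPM in mPFC and 0.0084 CPM in brainstem.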
